A study of Bos taurus with 12 samples.

Results

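The comparison described here is between the 2 horns of the uterus in summer: 3 endometrium arrays from the horn next to the ovary that bore the corpus luteum (CL side) against 3 from the opposite horn (non-CL side), which are 6 of the 12 arrays of the study. The samples were chosen by the side and season in their titles. All were biopsies of the inner lining of the uterus, and the donors were Japanese-Black cows at cycle day 15. The other 6 arrays are the same 2 horns in autumn; they entered the same fit, so that they also set the errors and p-values of the summer differences, and the autumn difference is given beside the summer one at the end. No treatment or genotype separates the groups, and the sampling ran over consecutive years that the labels do not assign to single samples. The labels do not say whether samples came from separate cows or whether both horns of a cow were sampled, so p-values measure only the spread between these samples, which may be technical.

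The corpus luteum is the gland that forms on the ovary after ovulation and secretes progesterone, the hormone that keeps the endometrium receptive to an embryo. Progesterone reaches both horns through the general circulation, and vessels shared by an ovary and its own horn can carry hormone locally to the horn on the same side, which is where the embryo usually lies in cattle. The endometrium holds a luminal and glandular epithelium that secretes defence proteins and nutrients, a stroma of fibroblasts, vessels and resident immune cells. In such bulk tissue, fewer cells of a type and less RNA per cell cannot be told apart.

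Each sample gave 1 array with a single dye, and all 6 summer arrays lay on the same slide. Values are log2 of the spot intensity relative to the array's 75th percentile, so 0 is a fairly bright probe and -7.28 is the common floor, the lowest level told from background on the array with the highest such limit. A difference is the mean of the CL side minus the mean of the non-CL side, given with the standard error (SE) of the fit, and a difference of 1 is a doubling. The 75th percentile of the raw signal was 3516 to 4418 on the other 5 summer arrays and 2007 on CL-side replicate 2, called the dim array below, which was also the array that set the floor. Between 80.5% and 84.1% of probes were well above background on the 6 arrays, the dim array at the lower end. The dim array correlated with the other arrays at a median of 0.928, against 0.979 or more for each other array of the study. Of markers of the main compartments, the epithelial adhesion gene EPCAM lay between 3.84 and 4.34 on all 6 arrays, and the stromal filament gene VIM between 2.60 and 2.87. Other stromal markers were less even. PDGFRA was at -6.22 on the dim array and between -4.44 and -3.72 on the other 5 summer arrays. NT5E went the other way, at 0.47 on the dim array and between -6.41 and -4.21 on the other 5. HOXA10, a patterning gene of the uterus, lay between 3.0 and 3.11 on 5 arrays and at -0.13 on the dim array. FOXL2, a transcription factor found in endometrial stroma, lay between 0.43 and 0.85 on the same 5 arrays and at -2.38 on the dim array. A second probe of FOXL2 had a summer difference of 0.36 ± 0.37, against -1.01 ± 0.67 for the probe shown, so the gene's probes ran in opposite directions. The dim array thus stands apart in its correlation and in single probes as well as in brightness, and results are given with and without it.

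No gene passed the test between the horns in summer. Of 12389 probes tested with limma, 0 (0%) had an adjusted p under 0.05, and the smallest Benjamini-Hochberg adjusted p was 0.984. An unadjusted p under 0.05 was reached by 175 probes (1.41%), where 0.05 of all probes tested would be 619. Over genes with a symbol, it was reached by 92 of 5794 (1.59%), of which 70 (1.21%) were higher and 22 (0.38%) lower on the CL side. The differences of all genes were centred near 0, with a median of 0.01 and 51.7% above 0. Every gene value below is therefore a description of genes with small unadjusted p or large separation, none of which passed the adjusted threshold, and the fitted adjusted p of each was 0.984 or above.

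The number of probes with an unadjusted p under 0.05 moved with single arrays. It was 77 without the dim array, 665 without CL-side replicate 1, 1060 without CL-side replicate 3, 310 without non-CL-side replicate 1 and 103 without non-CL-side replicate 3. With same-numbered samples as pairs it was 276 within the 6 summer arrays and 421 over the 12 arrays, while without pairs the 6 summer arrays alone gave 110, and no probe had an adjusted p under 0.05 in any of the 3. The spread of the differences within the same-numbered pairs was widest in the pair that holds the dim array, with an SD over the tested probes of 0.95 against 0.43 and 0.34 in pairs 1 and 3. All 3 pairs had a higher CL-side value for 723 genes (12.6%) and a lower one for 632 (11%) of the 5749 genes measured on all 6 arrays. The 3 values of a side lay entirely above the 3 of the other for 129 genes (2.24%) with the CL side higher and 90 (1.57%) with it lower.

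Both the 70 genes with higher CL-side values and the 22 with lower ones were furthest from the other horn mostly on the dim array. That array stood apart over all genes too. For 70.1% of them it lay further from the mean of the other CL-side arrays than these lay from each other. Nothing particular to the chosen genes is read from its place. Of the 70, 60 had their highest CL-side value on the dim array, 67 were higher in all 3 same-numbered pairs, and all 70 kept a difference above 0 without that array. Their median difference was 1.2, and 0.68 without the dim array, where 24 still had an unadjusted p under 0.05. Over all 5786 genes measured without that array, 38 had one, in either direction. Of the 22, 17 had their lowest CL-side value on the dim array, and all 20 that could be measured without it kept a difference below 0. Their median was -0.77 and -0.40 without it, and 1 still had an unadjusted p under 0.05. The genes were chosen on these differences, and the fit without the dim array shares its other arrays. The directions and the counts that persist are thus a description of the members.

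**Figure D1:**
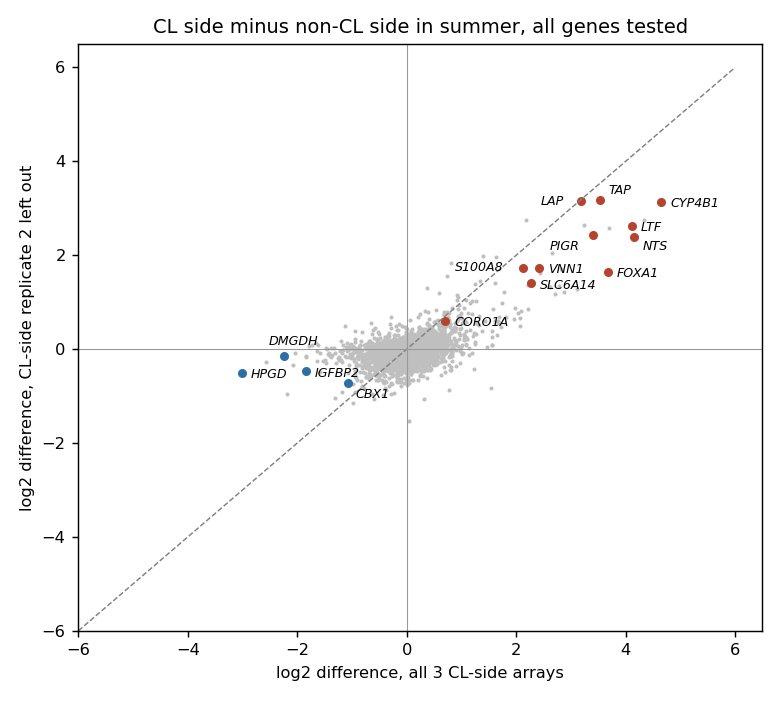
Log2 difference between CL side and non-CL side in summer for all genes tested, with all 3 CL-side arrays (horizontal) and with CL-side replicate 2, the dim array, left out (vertical); each point is a gene, the dashed line marks equal values, and named genes are red where the CL side was higher and blue where it was lower. TAP and LAP lie near the line, at 3.52 and 3.18 with the array and 3.19 and 3.15 without it, while DMGDH and IGFBP2 move close to 0.

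Several of the genes with the smallest unadjusted p and higher CL-side values encode defence proteins. S100A8, a calcium-binding protein of neutrophils and inflamed epithelium that forms part of calprotectin, had the smallest unadjusted p of all. S100A8 was at -0.39, 0.42 and -1.13 on CL-side arrays 1 to 3 and at -2.68, -2.19 and -2.62 on the non-CL side. All CL-side values lay above all non-CL-side values, and the means differed by 2.13 ± 0.47 (SE, n = 3 per side), a fold of 4.38 (limma, unadjusted p = 0.000913), and by 1.74 without the dim array. S100A12, a related neutrophil protein, was at 2.12, 2.36 and 1.30 on the CL side and at -0.16, 0.75 and 0.31 on the other, again without overlap, and differed by 1.62 ± 0.49 (1.41 without the dim array). LTF, the iron-binding antimicrobial protein lactoferrin, was at 3.34, 7.73 and 3.23 against -2.39, 2.73 and 1.63. Its sides did not overlap either, but the dim array was far above the other 2 CL-side arrays, and the difference of 4.11 ± 1.45 became 2.63 without it.

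PIGR, the receptor that carries IgA and IgM across epithelium into the lumen, was at 1.87, 3.76 and -0.25 on the CL side and at -2.83, -0.57 and -1.44 on the non-CL side. Its lowest CL-side value, on replicate 3, was above the highest non-CL-side value, and the difference was 3.40 ± 0.89 (limma, unadjusted p = 0.00318), or 2.42 without the dim array. JCHAIN, the chain that joins the antibodies carried by PIGR, ran the same way without overlap, at 1.32, 0.91 and 0.40 against 0.18, 0.08 and -0.49, with a difference of 0.96 ± 0.65. VNN1, a membrane pantetheinase, was at 0.55, 1.76 and -1.15 against -1.91, -2.17 and -2.03, a difference of 2.42 ± 0.59 (1.74 without the dim array).

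The beta-defensins, small antimicrobial peptides of epithelium, are shown with the stretch of the array probe that measured 2 of them, because related peptides can be hard to tell apart by hybridisation. The letters are 30 bases of each 60-base probe as given in the array files, 5′ to 3′, and capitals mark the longest run that the LAP and TAP probes share, 8 bases.
LAP: actggatgcggAGTCAGAAactgtgccctt
TAP: gatcaatgcccAGTCAGAAcgtgcgccctt
Lined up on that run, the printed stretches match at 21 of 30 bases and the whole probes at 30 of the 43 bases that then overlap. Whether either probe also binds the transcript of the other was not tested. LAP (lingual antimicrobial peptide) was at 1.11, -0.99 and -3.25 on the CL side and at -4.85, -3.64 and -4.17 on the other. TAP (tracheal antimicrobial peptide) was at 0.96, -0.55 and -4.08 against -4.75, -4.32 and -5.15. Both were highest on CL-side replicate 1, not on the dim array, and neither overlapped between sides, although CL-side replicate 3 came close to the non-CL-side values. The differences were 3.18 ± 1.05 for LAP and 3.52 ± 1.31 for TAP, and 3.15 and 3.19 without the dim array. DEFB13, another beta-defensin, had 2.66 ± 1.07, with -5.35 on CL-side replicate 3 below the highest non-CL-side value of -4.75. EBD, the enteric beta-defensin, had 1.65 ± 1.14 and only 0.30 without the dim array, and its sides overlapped. The LAP and EBD probes share a run of 11 bases.

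For lactoferrin the array holds the same 60-base probe at 2 spots, so these repeat the hybridisation and not the biology. The first 30 bases are shown because they identify the probe behind the widest defence difference.
LTF: ctctcccttcctgaagtcggatttttgcca
The spots gave differences of 4.11 and 4.20, and the second read 3.12, 7.70 and 3.01 on the CL side against -2.60, 2.45 and 1.39. Its high value on the dim array was thus read at both spots.

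**Figure D2:**
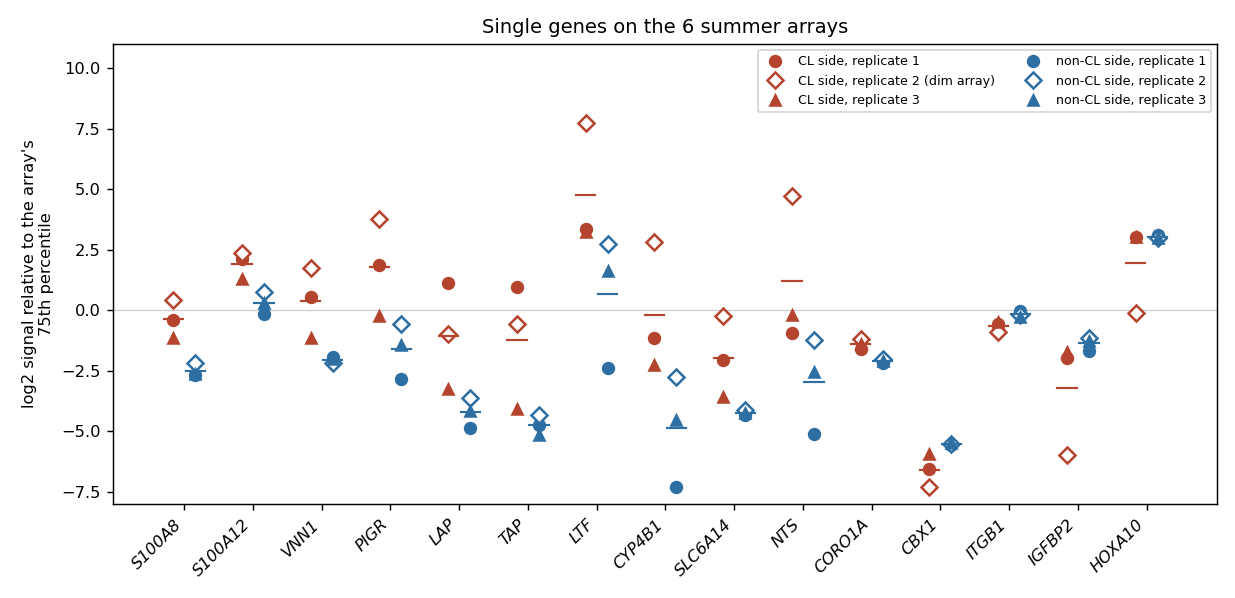
Log2 signal relative to the array's 75th percentile for 15 genes on the 6 summer arrays, with CL-side arrays in red, non-CL-side arrays in blue, a symbol per replicate number (open diamonds for replicate 2, which on the CL side is the dim array) and a line at the mean of 3. The CL-side symbols lie above the non-CL-side ones for genes from S100A8 to CORO1A, and below them for CBX1, ITGB1 and IGFBP2, where the dim array is lowest; HOXA10 differs on the dim array alone.

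Over the list of innate defence genes, cytokines and chemokines, 36 of 51 genes tested had a difference above 0, with a median of 0.33 against 0.01 over all genes. Unadjusted p was under 0.05 with the CL side higher for 9 of the 51, against 1.21% of all genes tested. With the CL side lower it was so for none, against 0.38%. Higher CL-side values without overlap were found for 10 of the 51, against 2.24% of the genes measured on all 6 arrays. The list's median was 0.09, 0.59 and 0.22 in pairs 1 to 3 and 0.09 without the dim array. CXCL5, a chemokine that attracts neutrophils, was at -2.27, 0.05 and -4.35 against -5.28, -4.69 and -5.07, without overlap, a difference of 2.83 ± 0.90 (1.70 without the dim array). CXCL8, the neutrophil chemokine interleukin-8, was at -2.54, -4.04 and -2.03 against -5.29, -4.27 and -3.23. Its sides overlapped, and since the dim array was its lowest CL-side value the difference of 1.39 ± 0.83 became 1.98 without it. Granulocyte and mast cell markers, 15 genes of which S100A8, S100A12 and LTF are also in the defence list, had 10 above 0. Their median was 0.29, and 0.12 without the dim array, with 0.05, 0.53 and 0.21 in the pairs. Mean scores of the list were 0.36 to 0.77 on the CL side and -0.40 to 0.06 on the other. These means include S100A8, S100A12 and LTF, which were named above for their differences. Of 23 such markers on the array, all 6 arrays detected 14 well above background and none detected CATHL2, CATHL4 or MPO, and the part of these cells in the defence genes was not tested.

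T and NK cell markers had higher CL-side values in 23 of 25 genes tested, against 51.7% of all genes tested, with a median of 0.58. In 14 of the 25 the CL side was higher in all 3 pairs, against 12.6% of the genes measured on every summer array. In 5 of the 25 it was higher without overlap, against 2.24% of the genes measured on every summer array. The pair medians were 0.15, 1.06 and 0.37. Without the dim array the median was 0.25, with 22 of 25 above 0. CORO1A, an actin regulator of leukocytes, was at -1.58, -1.19 and -1.40 on the CL side and at -2.17, -2.0 and -2.10 on the other. RAC2, a small GTPase of blood cells, was at -0.42, 0.15 and -0.66 against -0.68, -1.07 and -1.20. CD69, an early activation marker that also marks resident lymphocytes, was at -2.90, -2.94 and -2.96 against -3.35, -4.0 and -3.77. None of the 3 overlapped between sides, and CD69 was nearly equal on the 3 CL-side arrays. The differences were 0.70 ± 0.21 for CORO1A, 0.67 ± 0.23 for RAC2 and 0.77 ± 0.27 for CD69, and 0.60, 0.44 and 0.78 without the dim array. The T cell receptor chain CD3E had 0.60 ± 0.34, with -2.23 on CL-side replicate 3 below -1.63 on non-CL-side replicate 1, and the cytotoxic granule gene GNLY had 0.87 ± 0.41 with overlap, and 0.39 without the dim array. The list's score was 0.08 to 0.86 on the CL side and -0.24 to 0.12 on the other, so the scores overlapped, and CTLA4, ICOS and NCR1 were well above background on no summer array. B and plasma cell markers had 8 of 9 above 0 with a median of 0.38, and 0.05 without the dim array.

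Among complement genes, the plasma cascade that tags microbes, 12 of 20 were above 0 (median 0.24, and 0.01 without the dim array). Of the 20, 3 had an unadjusted p under 0.05, all with the CL side higher, against 1.21% of all genes tested. C4BPA, an inhibitor of the cascade, was at -1.46, -1.70 and -5.48 against -5.94, -5.87 and -6.53. Its sides did not overlap, CL-side replicate 3 lay nearest to the other horn, and the difference was 3.23 ± 1.15 (2.64 without the dim array). C2, a protease of the cascade, had 0.75 ± 0.27 without overlap. C8B, a component of its lytic pore, had 1.01 ± 0.42 with overlap, and 0.55 without the dim array.

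Transport and metabolism genes of epithelium were also among those with small unadjusted p. CYP4B1, a cytochrome P450 that oxidises fatty acids and foreign compounds, was at -1.14, 2.84 and -2.28 on the CL side and at the floor of -7.28, -2.75 and -4.52 on the other. The difference of 4.65 ± 1.30 was the largest of all genes tested, and it was 3.14 without the dim array. SLC6A14, a carrier of neutral and cationic amino acids, was at -2.04, -0.24 and -3.59 against -4.32, -4.10 and -4.25, without overlap, with 2.26 ± 0.64 (1.41 without the dim array). SLC4A4, a sodium bicarbonate cotransporter, had 1.74 ± 0.55 without overlap, and AQP3, a water and glycerol channel, 2.04 ± 0.82 with overlap, of which 0.97 and 0.77 were left without the dim array. Over the list of transporters of amino acids, glucose, ions and water, 24 of 39 were above 0. Of the 39, 6 had an unadjusted p under 0.05 with the CL side higher, against 1.21% of all genes tested. The list's median was 0.07, and -0.02 without the dim array.

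NTS, which encodes the peptide neurotensin, was at -0.95, 4.73 and -0.20 against -5.09, -1.24 and -2.54, with 4.15 ± 1.33 (2.38 without the dim array). FOXA1, a transcription factor of glandular epithelium, was at -5.54, 0.79 and -5.02 against -7.28, -6.23 and -7.28, with 3.67 ± 1.43 (1.65 without the dim array). Neither overlapped, and for both the dim array was far above the other CL-side arrays. BCL2L15, a relative of the apoptosis regulator BCL2, was at -2.29, -1.64 and -2.03 against -3.30, -3.14 and -2.97, with 1.15 ± 0.27 (0.98 without the dim array). NGB, the oxygen-binding protein neuroglobin, had 1.27 ± 0.36 close to the floor. KRT15, a basal keratin, was at 1.47, 3.57 and -1.08 against -4.71, -0.91 and -1.51, which overlapped, with 3.70 ± 1.15 (2.57 without the dim array), and the basal keratin KRT5 had 1.68 ± 0.73 with overlap (0.67 without the dim array).

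Epithelium markers were higher on the CL side in 2 of the 3 pairs and lower in the third. They had 19 of 27 above 0 with a median of 0.15 (0.04 without the dim array), and pair medians of 0.47, 0.71 and -0.29. Their score was -0.17 to 0.85 on the CL side and -0.26 to 0.16 on the other, with 27 of 29 markers on the array detected well above background throughout and OVOL1 on no summer array. Squamous and basal markers had 8 of 10 above 0 (median 0.26, and 0.04 without the dim array), with scores of 0.01 to 1.14 against -0.65 to 0.26. Of 13 squamous markers on the array, DSC3, DSG1 and KRT10 were well above background on no summer array. The part of epithelial content in the epithelial genes above was not tested.

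**Figure D3:**
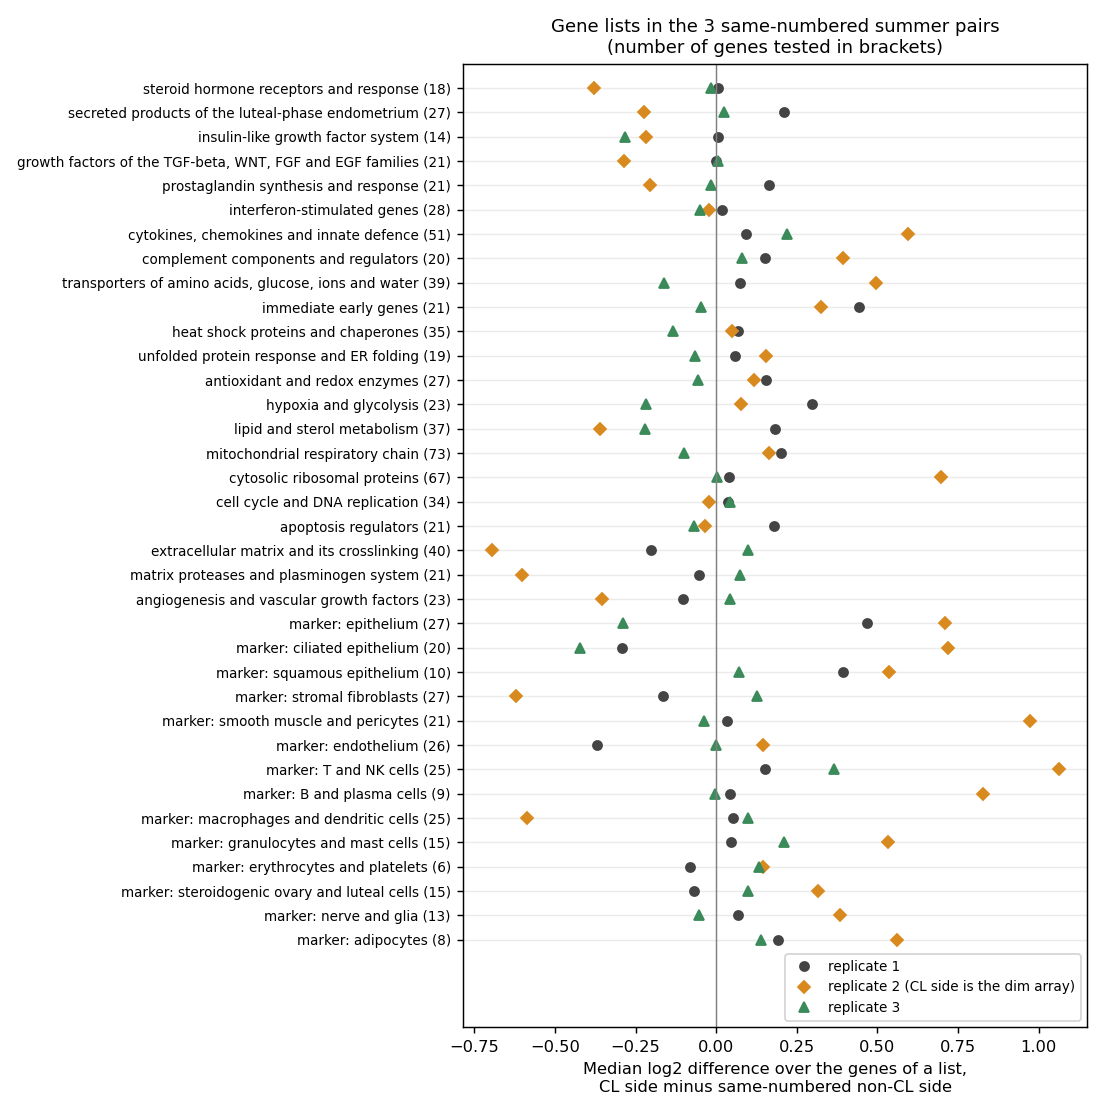
Median log2 difference, CL side minus the same-numbered non-CL side, over the genes tested of each of 36 lists, for replicate 1 (circles), 2 (diamonds, the pair that holds the dim array) and 3 (triangles). T and NK cell markers lie above 0 in all 3 pairs at 0.15, 1.06 and 0.37; ribosomal protein genes lie at 0.70 in the second pair and at 0.04 and 0.00 in the others.

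Among genes with an unadjusted p under 0.05 in the main fit, those with lower CL-side values were fewer and smaller in size. Which direction held more probes changed with the arrays left out, as given at the end. DHX57, a putative RNA helicase, was at -3.54, -4.13 and -2.87 against -2.78, -2.78 and -2.60, without overlap, with -0.79 ± 0.27 (-0.49 without the dim array). ITGB1, the integrin chain that anchors cells to matrix, was at -0.55, -0.89 and -0.46 against -0.02, -0.20 and -0.27, also without overlap, with -0.47 ± 0.18 (-0.35 without the dim array). SELP, the endothelial adhesion protein P-selectin, was at -0.10, -0.96 and 0.31 against 0.54, 0.39 and 0.37, with -0.69 ± 0.29 (-0.33 without the dim array). For these 3 genes the dim array was the lowest, CL-side replicate 3 lay nearest to the other horn, and replicate 1 lay between them. GPAM, which starts triglyceride synthesis, had -0.35 ± 0.15, without overlap.

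CBX1, KCNN2 and FAM13A, with differences of -1.08, -0.84 and -0.75 (-0.73, -0.68 and -0.41 without the dim array), were all at the floor of -7.28 on the dim array, and their differences were above 0 in the authors' deposited values. CBX1, a chromatin protein that reads histone methylation, was at -6.56, -7.28 and -5.93 against -5.54, -5.51 and -5.48. STRA6 and RBBP7 were measured on only 1 array per side, replicate 2, because the scanner marked their other summer spots as outliers. STRA6, the retinol uptake receptor, had -4.55 there, and -1.61 when the marked spots were kept. RBBP7, a histone-binding protein, had -1.41 and -0.57. PODXL and PDE2A, with -0.54 and -0.88 (both -0.34 without the dim array), also lacked arrays in the fit, the former on 1 side and the latter on both.

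The largest lower differences without overlap belonged to genes that were low on the dim array alone. DMGDH, an enzyme of choline breakdown, was at -0.18, -6.52 and -0.18 against -0.06, -0.08 and 0.01, and its difference of -2.25 ± 1.32 was -0.14 without the dim array. IGFBP2, which binds insulin-like growth factors, was at -1.98, -5.96 and -1.71 against -1.69, -1.14 and -1.28, and had -1.85 ± 0.91 and -0.47. DIO2, which activates thyroid hormone, had -1.64 ± 0.89 and -0.26. FST, the activin-binding protein follistatin, overlapped between sides but was also low on the dim array: it had -1.84 ± 1.07 and -0.18, with -1.65 on the dim array and 2.93 to 3.88 on the other summer arrays.

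Matrix and stroma lists lay below 0 in summer, again with the second pair furthest out. Of extracellular matrix genes, 14 of 40 were above 0 (median -0.27; pairs -0.20, -0.70 and 0.10), and of stromal fibroblast markers 8 of 27 (median -0.21; pairs -0.16, -0.62 and 0.13). The lists share 8 genes. No gene of the matrix list had an unadjusted p under 0.05. The medians were -0.12 and -0.04 with the dim array left out. COL3A1, a fibrillar collagen, was at 5.14, 3.39 and 5.70 against 5.41, 5.48 and 5.71, with -0.79 ± 0.45 (-0.11 without the dim array), and LAMA2, a laminin chain of basement membranes, had -1.49 ± 0.80 and -0.24. NT5E, which makes adenosine and is listed as a stromal marker, ran the other way with 2.87 ± 1.16 (1.23 without the dim array). Smooth muscle and pericyte markers had 16 of 21 above 0 with a median of 0.39, but 0.03, 0.97 and -0.04 in the pairs and -0.10 without the dim array.

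Genes of hormone response ran both ways. PGR, the progesterone receptor, was at -0.96, -1.71 and -1.21 against -0.90, -1.17 and -1.20, which overlapped, with -0.20 ± 0.19 and 0.01 without the dim array. OXTR, the oxytocin receptor, whose appearance on epithelium precedes luteal regression, was at -2.62, -0.60 and -3.74 against -5.62, -3.24 and -4.76. It was higher in all 3 pairs but overlapped, with 2.22 ± 1.11 (1.36 without the dim array). PRLR, the prolactin receptor, had 1.79 ± 0.79 near the floor (1.22 without the dim array). Over the list of steroid hormone receptors and response, 6 of 18 were above 0, with a median of -0.02 and a range of -1.61 to 2.22; without the dim array 11 of 18 were above 0 and the median was 0.01. Among prostaglandin genes, PTGES, which makes prostaglandin E, was at -2.37, 0.22 and -2.25 against -3.44, -2.44 and -2.84, without overlap, with 1.44 ± 0.63 (0.59 without the dim array), while the list's median over 21 genes was 0.02. SERPINA14, the progesterone-induced uterine milk protein, was at -1.20, -0.67 and -1.16 against -2.56, -0.79 and -1.25, with 0.52 ± 0.89 (0.35 without the dim array).

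Interferon-stimulated genes had 12 of 28 above 0 and a median of -0.04, and their largest difference was that of the antiviral gene MX2, 0.97 ± 0.45. Heat shock proteins and chaperones had a median of 0.03 over 35 genes, genes of the unfolded protein response 0.01 over 19, antioxidant enzymes 0.09 over 27 and the cell cycle -0.02 over 34. Cytosolic ribosomal protein genes had 62 of 67 above 0 with a median of 0.25, which was 0.04 without the dim array. RPS15 and RPS19, proteins of the small subunit, had 0.41 ± 0.15 and 0.34 ± 0.15 without overlap. Respiratory chain genes had 63 of 73 above 0 but a median of only 0.10, with 0.20, 0.16 and -0.10 in the pairs, and 50 of 73 were above 0 without the dim array. Immediate early genes, which cells switch on within minutes of a stimulus, had a median of 0.40 over 21 genes and 0.44, 0.32 and -0.05 in the pairs. Without the dim array the median was 0.08, with 12 of 21 above 0. Their scores overlapped widely, at -0.35 to 1.21 on the CL side and -1.03 to 1.18 on the other.

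Some genes were well above background on all arrays of 1 horn and on none of the other, so a bound is given where readings were too low. The bound sets the mean of the brighter side against that of the dimmer side, in which each array takes its own lowest signal well above background wherever the probe read below that, with no common floor. IL13, a cytokine of type 2 immunity, was 1.67-fold higher on the CL side (1.39-fold without the dim array). All its non-CL-side readings lay above their array's lowest signal well above background, so this is an estimate and not a bound. Its sides overlapped, with -7.02 on non-CL-side replicate 2 and -7.13 on CL-side replicate 3. ING5, a chromatin reader, was at least 2.80-fold higher on the CL side (2.35-fold without the dim array). SLC22A7, an organic anion transporter, was at -7.74, -5.65 and -7.65 on the CL side, and its bound of 1.64-fold rests on the dim array, being 1.02-fold without it. CDC45, a helicase factor of DNA replication, was at least 1.22-fold lower on the CL side and MRO at least 1.24-fold lower, but both differences were above 0 in the authors' deposited values and with another background correction (normexp). The adjusted p (limma) was 0.984 or above for all 5.

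The summer difference was then set beside that in autumn, fitted the same way on the autumn arrays. In autumn 106 of 5782 genes (1.83%) had an unadjusted p under 0.05 between the horns and none an adjusted one, and 4 genes had an unadjusted p under 0.05 in both seasons. Of the 70 genes with higher CL-side values in summer, 41 were above 0 in autumn, where 44% of all genes (2545 of 5782) were. For the difference between the seasons 21 of the 70 had an unadjusted p under 0.05, but that difference contains the summer values by which the 70 were chosen, so nothing is read from this count. Over all genes the test of the seasonal difference gave an unadjusted p under 0.05 for 116 of 5782 (2.01%) and no adjusted one, the smallest being 0.999 (limma). With same-numbered samples as pairs the corresponding number of probes was 549, against 233 (1.88%) without pairs.

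S100A8 had 0.59 ± 0.47 in autumn against 2.13 in summer, and PIGR 0.05 ± 0.89 against 3.40. LAP had -1.24 in autumn against 3.18 in summer (limma, unadjusted p of the seasonal difference 0.0132). C8B had -0.99 against 1.01 (same test, 0.00699), and its summer difference was 0.55 without the dim array. SRPX2, a secreted stromal protein, ran the opposite way, with -0.57 in summer (-0.34 without the dim array) and 0.71 in autumn (0.00609). Extracellular matrix genes had a median of -0.27 in summer (-0.12 without the dim array) and 0.44 in autumn, with 35 of 40 above 0 in autumn. An unadjusted p under 0.05 for the seasonal difference was reached by 7 of the 40, against 2.01% of all genes. COL1A1, the main fibrillar collagen, had -0.41 in summer (-0.26 without the dim array) and 1.0 in autumn. T and NK cell markers had 0.58 in summer (0.25 without the dim array) and -0.02 in autumn, with 2 of 25 under 0.05 for the seasonal difference, against the same 2.01%. The single genes were named by their summer values or with those values seen. The seasonal difference contains these values, so nothing is read from the p-values of single genes. The lists were chosen with earlier results known, and their seasonal counts were not repeated without the dim array. Nothing is read from those counts either. None of these differences between seasons passed the adjusted threshold.

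**Figure D4:**
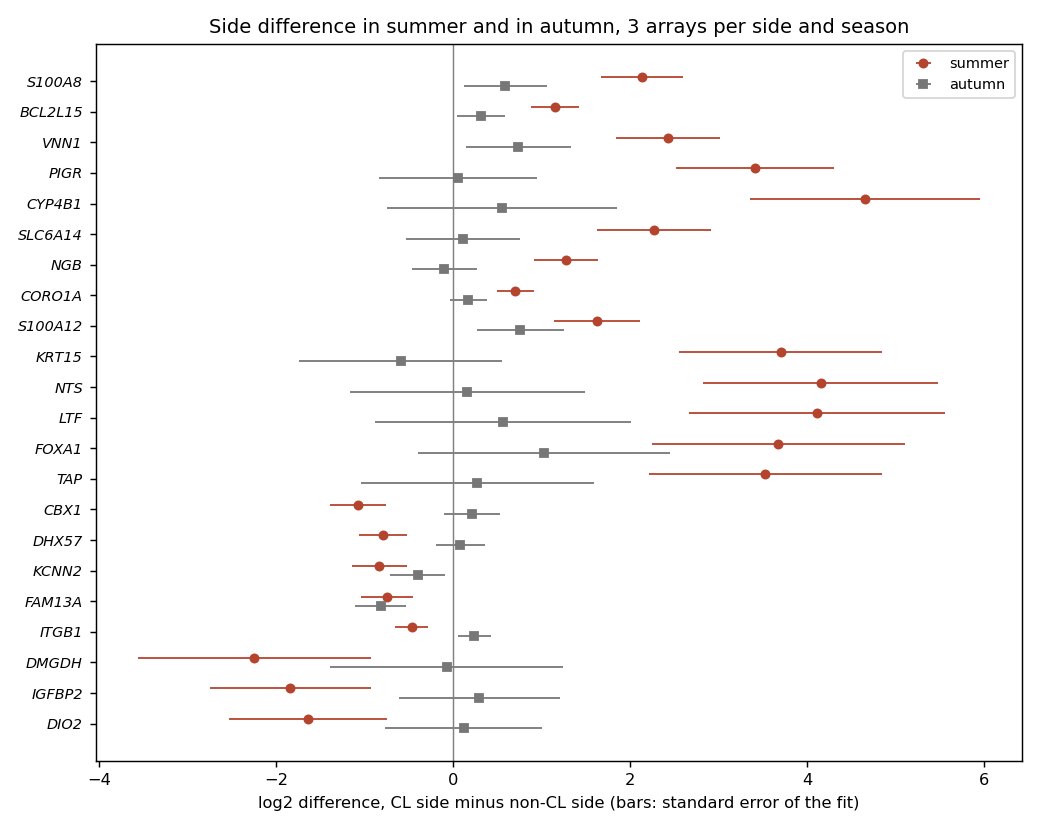
Log2 difference between CL side and non-CL side in summer (red circles) and autumn (grey squares) for 22 genes chosen on the summer values, with bars for the standard error of the fit and 3 arrays per side and season. The summer points were used in choosing the genes; PIGR lies at 3.40 in summer and 0.05 in autumn, and FAM13A at -0.75 and -0.82.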

How the data were processed

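The scanner output of each array was read with Feature Extraction 9.5.1.1, per the file headers, and 400 ng of RNA was labelled per sample, per the labels. The deposited processed signal is an intensity, background-subtracted on each array and left unscaled across arrays. The authors also deposited log2 values for these arrays and state neither their scale nor their centring: they had medians of -2.79 to -2.61, lay near 0 at the 75th percentile, correlated with the scanner values at 0.961 to 0.990, ran in the same direction, and were used as an alternative.

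Processed signals were divided by the array's 75th percentile over non-control probes, raised to the floor and put on the log2 scale. The 466 values flagged as outliers were set missing. Kept were 12404 of 15208 probes, those that every array of some group detected well above background. A symbol was found for 7027 probes through the array's own names and the RefSeq gene table of ARS-UCD2.0, and the probe with the highest mean stood for a gene. No coordinates are printed, since the sources used here name no genome build for the probes. limma 3.58.1 in R 4.3.3 fitted 4 group means over 12 arrays (8 residual degrees of freedom), two-sided, with Benjamini-Hochberg adjustment over the tested probes, and was tested on simulated data. The number of arrays limits precision.

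Deviations of same-numbered samples from their group means correlated at 0.50, 0.40 and 0.27 in summer and at 0.29, 0.14 and 0.38 in autumn. The numbers, from the sample titles, were thus taken as pairs in an alternative fit, the main fit being without them.

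The comparison, the 36 gene lists and the rule for naming genes were chosen with earlier results of these data known. Genes named were the 10 per direction with the smallest unadjusted p, up to 3 members per list with the smallest p, up to 5 per direction with the largest difference without overlap, and those detected on all arrays of 1 side alone, and some genes that the rule names are not reported here. EPCAM, VIM, HOXA10, FOXL2, PGR, SERPINA14, LAP, DEFB13, EBD, CXCL5, CXCL8, CD3E, GNLY, FABP4 and COL1A1 were named outside this rule, with their values seen.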

Additional observations from a re-analysis of the deposited data

Results flagged for a closer look

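The median over 10 squamous epithelium markers was 0.26 in summer and -0.28 in autumn. The same-numbered medians were 0.39, 0.54 and 0.07 in summer and -0.28, -0.35 and -0.15 in autumn. The difference of the medians was not tested. KRT15 and KRT5 had the smallest p of the list, with 3.70 and 1.68 in summer and -0.60 and -0.55 in autumn. The summer median was 0.04 without the dim array.

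The median over 8 adipocyte markers was 0.40 in summer and -0.31 in autumn, with 0.19, 0.56 and 0.14 in the summer pairs and -0.52, -0.48 and -0.04 in the autumn pairs, and this difference was not tested either. The fat cell hormone ADIPOQ and the lipase LPL were well above background on no summer array. The complement protease CFD, also made by fat cells, had 0.51 in summer and 0.16 in autumn, the gluconeogenic enzyme PCK1 1.08 and -0.65, and the fatty acid carrier FABP4 1.55 and -0.76. Without the dim array their summer differences were 0.16, 0.25 and -0.83. FABP4 was at -2.92, 2.47 and -6.40 on the CL side and at -6.44, -1.89 and -3.17 on the other, which overlapped. The summer median was 0.04 without the dim array.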

How the results depend on the processing

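Of 24 alternatives, 1 averaged the probes of a gene, for named genes alone, and gave no count of probes. Those added after seeing the data left out a replicate number on both sides, kept the spots marked as outliers, or left out replicate 2 with a replicate block. No probe had an adjusted p under 0.05 except 1 probe without a symbol, called without CL-side replicate 3 (adjusted p 0.00322) and without replicate 3 of both sides (0.0342). The 175 probes with an unadjusted p under 0.05 became 110 with the 6 summer arrays alone, 276 and 421 with same-numbered samples as a replicate block (6 and 12 arrays), 110 in the authors' values and 305 with array weights. They ranged from 77 to 1060 with 1 summer array left out, and were 376, 79 and 491 without replicates 1, 2 and 3 of both sides. The corresponding 233 for the difference between seasons became 549 with the block, 97 in the authors' values and 123 to 740 with 1 array left out, where probes past the threshold ranged from 0 to 1. Raising the floor moved the split of higher against lower probes from 121 and 54 to 87 and 66, array weights to 137 and 168, and the authors' values to 92 and 18. The split was 420 and 640 without CL-side replicate 3, and 115 and 195 without non-CL-side replicate 1. Without replicate 3 of both sides it was 215 and 276. The other fits that left out arrays had more higher than lower probes. Of 1804 values of named genes under the alternatives, 1791 kept their direction. Several alternatives cannot change the difference of a gene measured on all 6 summer arrays, among them the 6 summer arrays alone, the replicate blocks and a slide term. The count is therefore no measure of robustness. In the authors' values CBX1 had 0.042, KCNN2 0.18, FAM13A 0.18, CDC45 0.30 and MRO 0.32, and with normexp CDC45 had 0.015 and MRO 0.059. With array weights PGR had 0.017 and FABP4 -1.79. With 1 summer array left out PGR ranged from -0.366 to 0.010 and FABP4 from -0.83 to 3.6, both reversed without the dim array, as was SLC22A7 (-0.042 to 0.77). CDC45 ranged from -0.11 to 0.0076, reversed without non-CL-side replicate 3. The cause was not tested. List medians were within the spread between pairs for 781 of 828 values. The same limit holds for this count, and the spread includes the pair with the dim array. Signal near background limits NGB, FOXA1, PRLR, IL13 and the genes with bounds.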
